A study of Mus musculus with 8 samples.

Results

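The retinoic acid synthesis and handling genes are a set of 9 genes taken by symbol from the 55341 gene symbols counted in each library. The set is Rbp4, Stra6, Rdh10, Aldh1a1, Aldh1a2, Aldh1a3, Crabp1, Crabp2 and Cyp26b1, and all 9 were found in the count data. RNA came from sorted nuclei of cortical GABAergic neurons of juvenile mice, with 1 library per mouse. These inhibitory neurons carried a Cre-dependent nuclear fluorescent protein, and the Cre driver is not given in the sources used here. Mice of both groups had been made hypothyroid by giving propylthiouracil (PTU), which blocks thyroid hormone synthesis, to their pregnant mothers. The PTU group (mice 9 to 12, n = 4) had no further treatment, while 4 further mice, numbers 13 to 16 and called PTU+TH, received thyroid hormone (TH) by injection into the abdomen 24 h before the brain was taken. No euthyroid group was part of the comparison, so values describe TH given to hypothyroid mice.

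Retinoic acid is made from vitamin A in steps. Retinol travels in blood on the carrier RBP4 and can enter cells through the receptor STRA6. RDH10 oxidises retinol to retinal, and the retinal dehydrogenases ALDH1A1, ALDH1A2 and ALDH1A3 oxidise retinal to retinoic acid. In the cell, CRABP1 and CRABP2 bind retinoic acid, and CYP26B1 degrades it. Retinoic acid acts through nuclear receptors (RAR) that pair with retinoid X receptors (RXR), the same partners that thyroid hormone receptors use, and Aldh1a1 is often listed among genes that respond to TH in the brain. In the brain much retinoic acid is made in the meninges, a tissue outside the sorted neurons.

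None of the 9 genes was called between the groups. In the edgeR quasi-likelihood test over 17355 genes, 8 members had enough counts to be tested, and 0 of them reached an adjusted p under 0.05 (Benjamini-Hochberg), against 2.12% of all tested genes (1.49% called higher in PTU+TH and 0.634% lower). At an unadjusted p under 0.05 there were 2 members, Cyp26b1 and Aldh1a1, both higher in PTU+TH, against 12.8% of all tested genes (6.59% higher and 6.17% lower), and 0 members were called by DESeq2 or by limma voom. For these same 2 members every PTU+TH library lay above every PTU library, which held for 4.68% of all tested genes in that direction and for 8.71% in either direction. The median log2 fold change of the 8 was -0.13, beside -0.0066 over all tested genes, with 3 above and 5 below 0. The genes Hr, Klf9 and Dbp, known to respond to TH, were called higher in the same fit, at 3.88, 1.37 and 1.09 on the log2 scale (edgeR adjusted p = 6.59e-07, 0.00223 and 0.00639), so the groups differed in the direction their labels give.

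**Figure D1:**
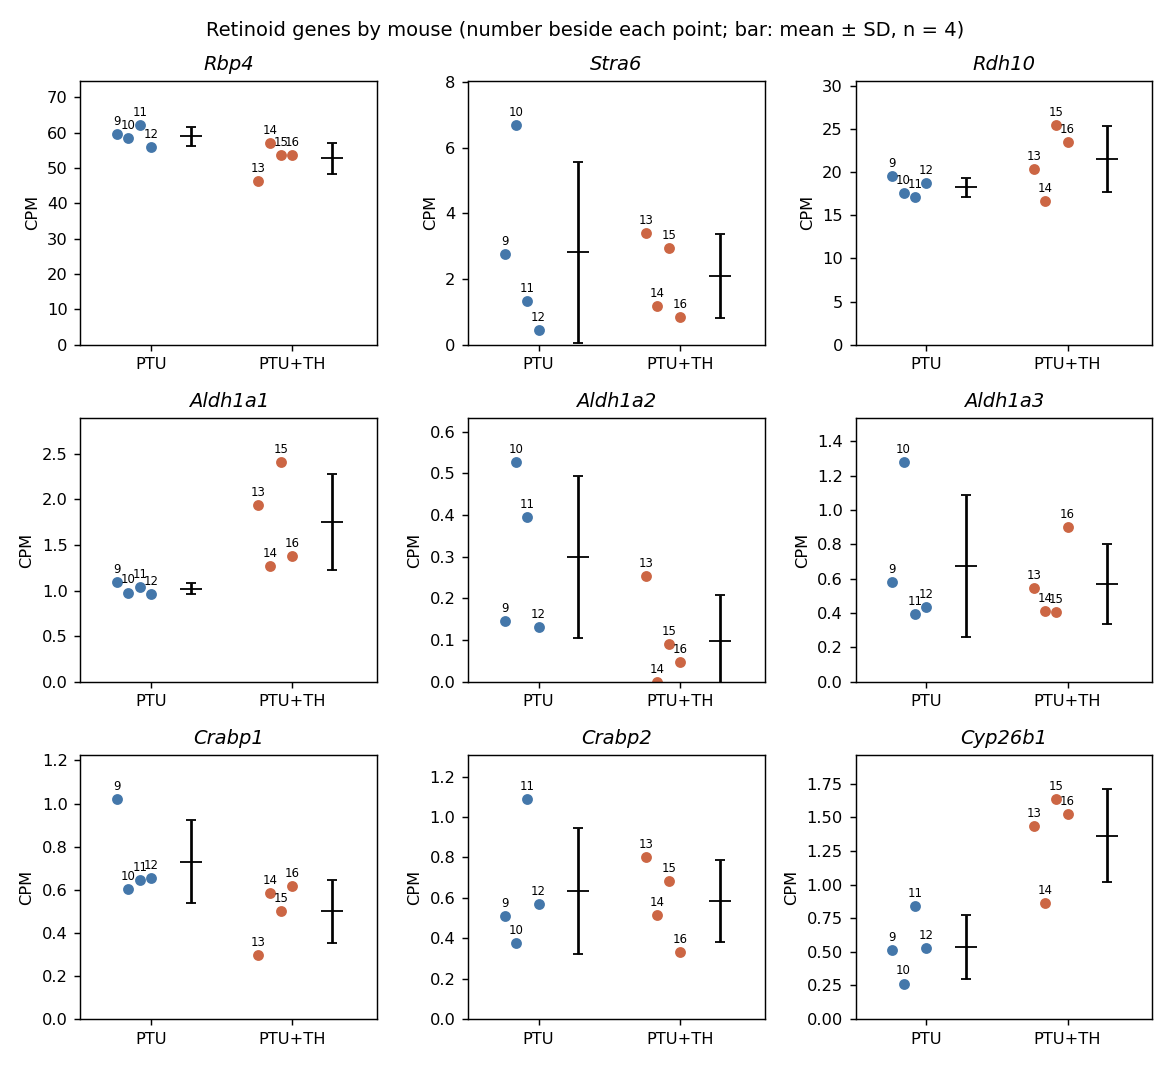
Abundance of the 9 genes in CPM (counts scaled by library size, vertical axes from 0) in the PTU and PTU+TH libraries, 1 point per mouse with its number; black bars are the mean ± SD of 4 mice, and the lower arm of the bar for Aldh1a2 in PTU+TH is cut at 0. The groups are apart for Cyp26b1 and Aldh1a1 and overlap for the other 7, and Stra6 spreads from 0.44 to 6.70 CPM within PTU.

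Library totals ran from 21762810 to 29084071 counts, with a two-sided exact permutation p of 1 between groups (smallest possible p 0.0286). With these depths 1 count was worth 0.0344 to 0.0495 CPM, so a member near 1 CPM rests on few counts per library. Of the 7 GABAergic marker genes, 6 averaged 14.1 (Slc32a1) to 2862 CPM (Adarb2) in PTU, with Gad1 and Gad2 at 471 and 427 CPM, and the 8 excitatory ones 1.37 (Emx1) to 174 CPM (Cux2), while Dlx1, whose whole body lies within other genes, was at 0 in all libraries. Libraries of PTU+TH mice 15 and 16 held 0 counts of 4 Y-linked genes and the other 6 held 7960 to 11548. This difference between mice was found in PTU+TH only, so it is unbalanced between the groups. With it as a term in the fit 129 genes were called in edgeR, against 368 without it. Marker sums of endothelium ran from 35.6 to 156 CPM in PTU and from 34.5 to 112 CPM in PTU+TH, and those of astrocytes from 137 to 258 CPM and from 139 to 389 CPM. All 6 tested microglia markers and 6 of 7 oligodendrocyte markers had log2 fold changes above 0 (medians 0.57 and 0.68, 0 called in edgeR), and their part in the members' values was not tested.

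Rbp4 was the most abundant of the 9. The gene (chromosome 19, 38116629 to 38125281, GRCm38, minus strand) encodes the retinol carrier, and its promoter drives a Cre line widely used for deep-layer cortical neurons. Mice 9 to 12 (PTU) had 59.5, 58.4, 62.2 and 55.9 CPM, and mice 13 to 16 (PTU+TH) had 46.5, 57.1, 53.7 and 53.7 CPM. PTU+TH mouse 13 was lowest, mouse 14 lay within the PTU range, and the groups overlapped. The log2 fold change was -0.16 (SE 0.09, 95% interval -0.35 to 0.03, edgeR adjusted p = 0.509), which is a level of 0.782 to 1.02 times that of PTU. Among PTU mice Rbp4 averaged 59.0 ± 2.62 CPM, and the excitatory neuron gene Slc17a7, given because of that Cre line, 35.2 ± 18.6 CPM (SD, n = 4).

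Stra6, the cell-surface receptor that takes retinol from RBP4, was the member whose counts scattered most relative to counting alone. The gene lies on chromosome 9 (58063788 to 58153996, plus strand). PTU libraries held 2.77, 6.70, 1.34 and 0.44 CPM, PTU+TH libraries 3.42, 1.17, 2.95 and 0.86 CPM. The highest and the lowest library both belonged to PTU, and the PTU+TH range lay inside the PTU range. The log2 fold change was -0.44 (SE 0.71, 95% interval -2.02 to 1.15, edgeR adjusted p = 0.896), and without PTU mouse 10 it was 0.45 (edgeR adjusted p = 0.868), so no direction can be given. Among the 4 PTU libraries the scatter of its counts was 63.5 times what counting alone gives (chi-square per degree of freedom), and it was 18.5 times in PTU+TH.

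Levels of Stra6 went with those of vascular marker genes, and in part with those of other cell types. The 7 endothelial markers summed to 55.7, 156, 46.0 and 35.6 CPM in mice 9 to 12 and to 82.4, 34.5, 112 and 48.6 CPM in mice 13 to 16, and mouse 10 was highest for both, mice 13 and 15 next. Pericyte and smooth muscle markers, 8 genes, ran in the same order at the top, with 106 CPM in mouse 10, 74.4 CPM in mouse 15 and 60.6 CPM in mouse 13. In PTU the astrocyte sums, 249, 258, 190 and 137 CPM in mice 9 to 12, also ranked the mice as Stra6 did. Mice 13 and 15 were the highest of PTU+TH in the astrocyte, oligodendrocyte and microglia sums as well. The part of any of these cell types in the Stra6 values was not tested. With the endothelial sum as a term in the fit, the log2 fold change of Stra6 was -0.18 (edgeR adjusted p = 0.915), and with the astrocyte sum it was -0.66 (edgeR adjusted p = 0.653). In sorted bulk nuclei, fewer cells of a type and less RNA per cell cannot be told apart. Only 38.8% of the body of Stra6, but 95.1% of its exon bases, is free of other genes (Ccdc33 and Gm16131). How reads in shared stretches were counted is not given in the sources used here.

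**Figure D2:**
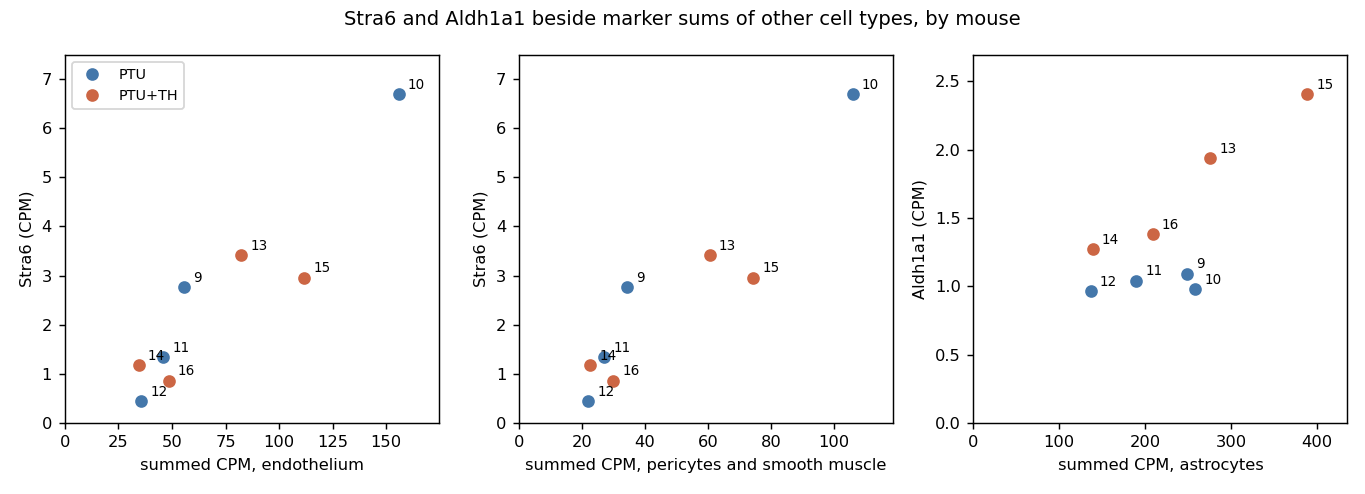
Stra6 (CPM) against the summed CPM of endothelial markers (left) and of pericyte and smooth muscle markers (middle), and Aldh1a1 (CPM) against the summed CPM of astrocyte markers (right), 1 point per mouse with its number, axes from 0. Mouse 10 is highest for Stra6 and both vascular sums; the PTU mice keep Aldh1a1 between 0.96 and 1.09 CPM over astrocyte sums of 137 to 258, and PTU+TH mice 13 and 15 are high on both axes.

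Rdh10, the enzyme of the first oxidation from retinol to retinal, was the second most abundant. It lies on chromosome 1 (16105774 to 16133734, plus strand) and had 19.5, 17.6, 17.1 and 18.8 CPM without TH against 20.4, 16.7, 25.5 and 23.5 CPM with it. Mice 13, 15 and 16 lay above all PTU mice and mouse 14 below them all. The log2 fold change was 0.24 (SE 0.14, 95% interval -0.06 to 0.53, edgeR adjusted p = 0.54). The high values of mice 15 and 16 belong to the libraries without Y-linked counts, and in the 6 libraries with such counts the log2 fold change was 0.02 (edgeR adjusted p = 0.995).

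Of the 3 retinal dehydrogenases, Aldh1a1 was the one with separated groups. The gene (chromosome 19, 20492715 to 20643465, plus strand) drew 30, 26, 21 and 22 counts from mice 9 to 12, then 46, 37, 53 and 29 from mice 13 to 16. In CPM these were 1.09, 0.98, 1.04 and 0.96 against 1.94, 1.27, 2.41 and 1.38. The PTU mice were nearly equal, with a scatter of 0.09 times that of counting, and the PTU+TH mice were all higher but unequal, with 3.84 times. Group means were 1.02 ± 0.06 CPM without TH and 1.75 ± 0.53 CPM with TH (SD over 4 mice), a log2 fold change of 0.77 (SE 0.31, 95% interval 0.10 to 1.45, edgeR unadjusted p = 0.0269, adjusted p = 0.293). Over the 20 other ways of fitting it stayed between 0.58 and 0.91, with adjusted p from 0.237 to 0.714.

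Within PTU+TH, mice 13 and 15 had both the highest Aldh1a1 and the highest astrocyte marker sums, at 276 and 389 CPM, against 139 and 209 CPM in mice 14 and 16. The same mice, 13 and 15, were also the highest of PTU+TH in the marker sums of endothelium (82.4 and 112 CPM), pericytes and smooth muscle (60.6 and 74.4), oligodendrocytes (126 and 194), microglia (69.8 and 80.6) and fibroblasts (10.0 and 15.4). So they were for excitatory neurons (249 and 285 CPM) and choroid plexus (3.50 and 2.14 CPM). Sums of striatal and GABAergic neurons were highest in mice 15 and 16. The dopamine neuron sum was highest in mice 13 and 16 (60.8 and 58.2 CPM). Its groups did not overlap, at 45.5 to 53.0 CPM in PTU and 55.6 to 60.8 CPM in PTU+TH. In PTU, astrocyte sums of 249, 258, 190 and 137 CPM went with Aldh1a1 levels that hardly varied. On 21 to 30 counts per library these levels were closer together than counting alone gives (0.09 times). Nothing on astrocyte RNA can be read from that closeness. The astrocyte sums of mice 14 and 16 lay inside the PTU range, and their Aldh1a1 levels were 1.27 and 1.38 CPM. With the astrocyte sum as a term the log2 fold change was 0.63 (edgeR adjusted p = 0.406), and with the endothelial sum 0.74 (edgeR adjusted p = 0.31). Of the 7 astrocyte markers 6 were tested, 0 were called, and Gfap was at 0 in all libraries, as nearly all genes are that lie, like it, wholly within other genes. The part of astrocyte RNA, or that of the other cell types, in the Aldh1a1 difference was not tested.

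Among 12670 genes of at least 1 mean CPM, those whose log2 CPM most resembled that of Aldh1a1 over the 8 libraries were Ackr3, Robo3 and Slc25a37, with Pearson correlations of 0.970, 0.964 and 0.956, given as a description of 8 points that share the 2 groups and the same libraries. Robo3, an axon guidance receptor, had a log2 fold change of 2.41 (edgeR adjusted p = 0.0408). Ackr3, a scavenging chemokine receptor of interneurons, had 0.61 and Slc25a37, a mitochondrial iron carrier, 0.46 (edgeR adjusted p = 0.0767 and 0.17).

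Counts of Aldh1a1 could be shared with its neighbour Aldh1a7, a close copy on the same chromosome. Their coding sequences, taken as the longest open reading frame of GENCODE M21 transcripts, were 1506 bases each and identical at 91.6% of bases, whereas Aldh1a1 was identical to Aldh1a2 at 69.9% and to Aldh1a3 at 69.1% of aligned bases. The first 90 coding bases are shown because they let a reader see how far the copies can be separated, with the 5 differing bases in capitals.
Aldh1a1: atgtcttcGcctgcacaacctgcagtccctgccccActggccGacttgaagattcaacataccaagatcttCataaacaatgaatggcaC
Aldh1a7: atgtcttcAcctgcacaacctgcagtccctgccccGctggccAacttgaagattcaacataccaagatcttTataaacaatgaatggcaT
Of the 4934 windows of 50 bases in Aldh1a1 transcripts, 151 (3.06%) occurred in Aldh1a7 as well, so most windows of that length name 1 gene. Aldh1a7 itself drew 9 counts in all from the PTU libraries and 10 from the PTU+TH libraries, where Aldh1a1 drew 99 and 165. The other limit is overlap: 60.0% of the Aldh1a1 body, but 88.8% of its exon bases, is free of other genes.

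Aldh1a3 and Aldh1a2 were scarcer and showed no separation. Aldh1a3 (chromosome 7, 66390890 to 66427517, minus strand) read 0.58, 1.28, 0.40 and 0.44 CPM for mice 9 to 12 and 0.55, 0.41, 0.41 and 0.90 CPM for mice 13 to 16, with PTU mouse 10 highest and the groups overlapping. Its log2 fold change was -0.27 (95% interval -1.32 to 0.78, edgeR adjusted p = 0.908) and 0.25 without mouse 10 (edgeR adjusted p = 0.924), the library that was also highest in vascular markers; with the endothelial sum as a term it was -0.14 (edgeR adjusted p = 0.957). Aldh1a2 (chromosome 9, 71215789 to 71296243, plus strand), the main retinal dehydrogenase of the meninges, drew 4, 14, 8 and 3 counts from mice 9 to 12, highest again in mouse 10, and 6, 0, 2 and 1 from mice 13 to 16. It was the member with too few counts for the test, and the 0 of mouse 14 allows a level of up to 0.103 CPM (3 counts). In the fit without a filter its log2 fold change was -1.58 (95% interval -3.51 to 0.34, edgeR adjusted p = 0.625), so no difference was detected and the interval was wide.

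The 13 marker genes of meningeal and perivascular fibroblasts summed to between 9.01 and 16.8 CPM without TH and between 8.04 and 15.4 CPM with it, and 0 of the 7 tested were called in edgeR. Ogn, at 0 in all libraries, also lies wholly within other genes. The part of these cells in the counts of Aldh1a2 was not tested.

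CRABP1 and CRABP2 are small cytosolic proteins that hold retinoic acid; CRABP2 is known for delivering it to the receptors. Crabp1 (chromosome 9, 54764748 to 54773110, plus strand) gave 1.02, 0.60, 0.64 and 0.66 CPM for mice 9 to 12, then 0.30, 0.58, 0.50 and 0.62 CPM for mice 13 to 16. PTU mouse 9 was above all others and PTU+TH mouse 13 below, while the other 6 lay between 0.50 and 0.66 CPM. The log2 fold change was -0.55 (SE 0.41, 95% interval -1.43 to 0.33, edgeR adjusted p = 0.668). Crabp2 (chromosome 3, 87948666 to 87953376, plus strand) gave 0.51, 0.38, 1.09 and 0.57 CPM against 0.80, 0.52, 0.68 and 0.33 CPM, with overlapping groups and PTU mouse 11 highest. Its log2 fold change was -0.10 (95% interval -1.09 to 0.89, edgeR adjusted p = 0.97), and 0.27 without mouse 11 (edgeR adjusted p = 0.905). Both intervals include 0 and are wide, so the data do not show that the binding proteins were alike in the groups.

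Cyp26b1, the retinoic acid hydroxylase that clears the ligand, had the largest fold difference among the 8 tested members. The gene (chromosome 6, 84571414 to 84593908, minus strand) shares no base with another gene. Mice 9 to 12 gave 14, 7, 17 and 12 counts, mice 13 to 16 gave 34, 25, 36 and 32. These are 0.51, 0.26, 0.84 and 0.52 CPM against 1.43, 0.86, 1.64 and 1.52 CPM. PTU mouse 11 and PTU+TH mouse 14 almost met, and the other PTU+TH mice were well above every PTU mouse. Means were 0.53 ± 0.24 CPM without TH and 1.36 ± 0.35 CPM with TH (SD over 4 mice). The log2 fold change was 1.35 (SE 0.41, 95% interval 0.47 to 2.23, edgeR unadjusted p = 0.00543, adjusted p = 0.129), a 2.56-fold higher level with an interval from 1.39 to 4.71. By unadjusted p it ranked at place 727 of the 17355 genes.

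Across 19 other fits the log2 fold change of Cyp26b1 lay between 1.11 and 1.64. Its smallest adjusted p was 0.0535, in DESeq2, and the largest was 0.635, in the 6 libraries with Y-linked counts, where the log2 fold change was 1.11. In those libraries mice 13 and 14 stood at 1.43 and 0.86 CPM, still above PTU at 0.26 to 0.84 CPM. The related genes Cyp26a1 and Cyp26c1 had too few counts to be tested, with 6 and 25 counts summed over PTU and 22 and 23 over PTU+TH.

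**Figure D3:**
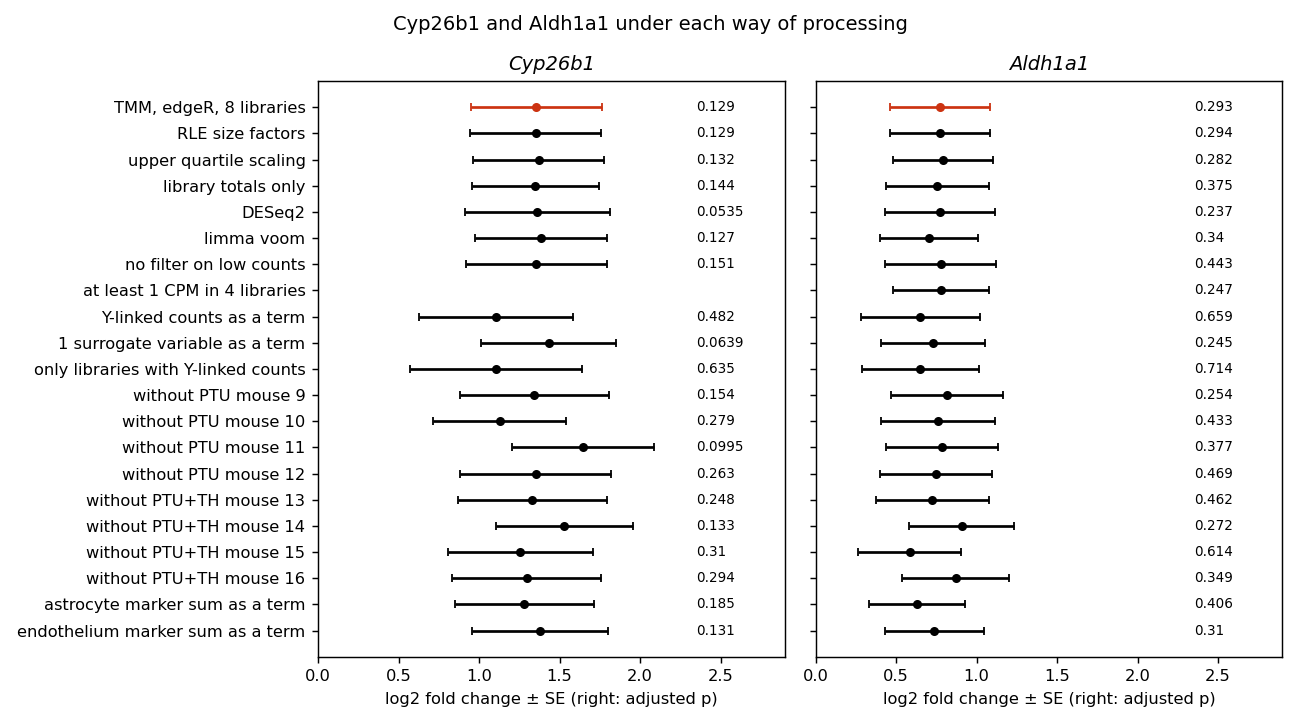
Log2 fold change (PTU+TH over PTU, horizontal axis) ± SE of Cyp26b1 (left) and Aldh1a1 (right) under each way of processing, with the adjusted p printed at the right; red marks the fit reported in the text. All values lie above 0, from 1.11 to 1.64 for Cyp26b1 and from 0.58 to 0.91 for Aldh1a1, and 0 of the fits gave an adjusted p under 0.05; Cyp26b1 had no value under the filter of 1 CPM in 4 libraries.

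Sequence before the start of Cyp26b1 and Aldh1a1, the members with separated groups, is given from RefSeq (GRCm38.p6), on the gene's strand. Windows of 250 bases before a RefSeq start were searched, and they are shown without the bases that GENCODE M21 places in an exon, 98 for Cyp26b1 and 7 for Aldh1a1, whose starts differ between the annotations. Capitals mark matches, on either strand, to the nuclear receptor core motif AGGTCA, to its variant AGTTCA, to its other variant GGGTCA or to the TATA box motif TATAAA. The first window is chr6:84593909-84594060 on the minus strand, and the second, at 1 of the RefSeq starts of Aldh1a1, is chr19:20601718-20601960 on the plus strand, inside the Aldh1a1 body as GENCODE draws it.
Cyp26b1: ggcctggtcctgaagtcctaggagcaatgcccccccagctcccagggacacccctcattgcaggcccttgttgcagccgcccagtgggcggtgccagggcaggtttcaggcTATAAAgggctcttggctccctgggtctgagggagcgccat
Aldh1a1: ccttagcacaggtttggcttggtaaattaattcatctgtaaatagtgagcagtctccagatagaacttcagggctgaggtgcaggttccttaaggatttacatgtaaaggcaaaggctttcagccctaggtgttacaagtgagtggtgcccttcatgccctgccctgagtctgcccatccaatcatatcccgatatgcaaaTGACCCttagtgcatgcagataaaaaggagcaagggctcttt
The Cyp26b1 window held TATAAA, which 12.4% of the 32851 promoter windows of 250 bases hold, and none of the 3 receptor motifs. The Aldh1a1 window held GGGTCA on the reverse strand, starting 49 bases before the RefSeq start, as 11.6% of all windows do, and the Aldh1a7 window held the same motif at the same distance. Of the members with overlapping groups, Rbp4 held GGGTCA on the reverse strand at 1 start, 53 bases before it, and TATAAA at the other. The window at the other start of Aldh1a1 held none of the 4 motifs. At least 1 of the 3 receptor motifs was in 32.9% of all windows. Windows were found for 6 of the 9 members, and such matches describe letters, not binding.

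Levels were compared between members per kilobase of exon, since longer genes collect more reads. On that scale the order in PTU was Rbp4 at 43.9 CPM per kb, Rdh10 at 4.38, Crabp1 at 0.911, Stra6 at 0.482, Crabp2 at 0.481, Aldh1a1 at 0.206, Aldh1a3 at 0.146, Aldh1a2 at 0.132 and Cyp26b1 at 0.0999 CPM per kb. Rbp4 and Rdh10 stood clear of the rest and of each other. The ranges of Crabp1, Stra6 and Crabp2 overlapped from 1 gene to the next, Crabp2 lay above Aldh1a1 without overlap, and from Aldh1a1 down each gene overlapped the next. In PTU+TH, Cyp26b1 at 0.255 CPM per kb came above Aldh1a3 at 0.123 and Aldh1a2 at 0.0432 CPM per kb, though its range still overlapped that of Aldh1a3. Per kilobase of the whole gene body, Rbp4 and Rdh10 again led, and Aldh1a1, the longest gene at 150751 bases, fell to place 8 in both groups. On that scale Cyp26b1 was at place 6 in PTU (0.0238 CPM per kb), already above Aldh1a3 (0.0184) and Aldh1a2. In PTU+TH it was at place 4 (0.0606 CPM per kb). With the treatment of introns not given, neither scale can be preferred.

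**Figure D4:**
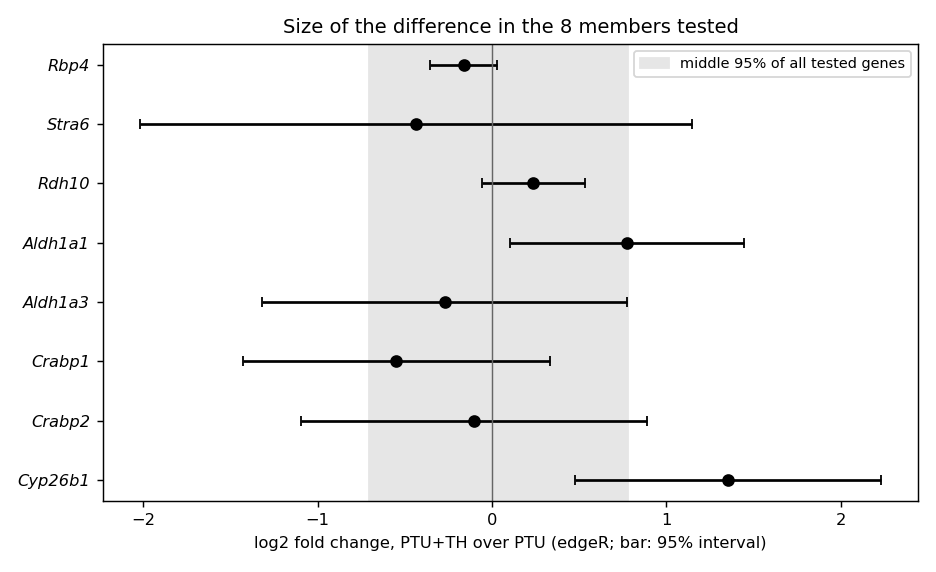
Log2 fold change of the 8 tested members (PTU+TH over PTU, horizontal axis; points with 95% intervals), ordered from uptake to degradation; the grey band holds the middle 95% of all tested genes, from -0.71 to 0.78. Cyp26b1 at 1.35 lies outside the band, Aldh1a1 at 0.77 at its edge, and the intervals of the other 6 include 0.

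The rest of the retinoid pathway, with other aldehyde dehydrogenases beside it, was described from 7 lists, called pathway lists here. The other aldehyde dehydrogenases (15 listed, 12 tested) are a family list, and not all of them act on retinoids. The 7 lists held 60 genes in all, 37 of which were tested. In the edgeR test 0 of them were called. At an unadjusted p under 0.05 there were 2 of the 37 higher and 6 lower in PTU+TH, where all tested genes gave 6.59% and 6.17%. DESeq2 called 1 and limma voom 0, and the median log2 fold change was -0.06 (all tested genes -0.0066), with 12 genes above 0 and 25 below. Of all tested genes 48.6% lay above 0. Of the 6 nuclear receptors, which were all tested, Rarb and Rxrb were the most abundant, at 52.0 and 51.9 CPM in PTU, and had log2 fold changes of -0.03 and 0.05.

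The smallest p-values of the 7 lists belonged to Rxrg and Rxra, encoding partners shared by retinoic acid and thyroid hormone receptors, and to Aldh9a1. Aldh9a1 is an aldehyde dehydrogenase of the route to GABA from putrescine. Rxrg averaged 11.2 CPM without TH and 7.03 CPM with TH (7.38, 9.14, 4.36 and 7.23 CPM in mice 13 to 16), all PTU+TH mice below all PTU mice (log2 fold change -0.67, SE 0.20, edgeR adjusted p = 0.119). DESeq2 called it (adjusted p = 0.0308), and of the 20 other fits this was the only one that did; with Y-linked counts as a term its log2 fold change was -0.44 (edgeR adjusted p = 0.573). Rxra was at 25.8, 18.2, 21.6 and 21.1 CPM against 17.5, 15.3, 17.7 and 14.7 CPM, with groups that did not overlap (log2 fold change -0.41, SE 0.13, edgeR adjusted p = 0.16). Aldh9a1 was at 68.6, 76.9, 69.3 and 81.7 CPM against 66.4, 65.8, 48.7 and 54.8 CPM, lowest in the 2 mice without Y-linked counts (log2 fold change -0.33, SE 0.11, edgeR adjusted p = 0.191). In the 6 libraries with such counts its value was -0.16 (edgeR adjusted p = 0.793). For all 3 of these genes every PTU+TH library lay below every PTU library, which held for 4.03% of all tested genes. The 3 were picked by smallest p in these same data. Separated groups were thus nearly fixed by the choice, and that share is no yardstick for them.

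**Figure D5:**
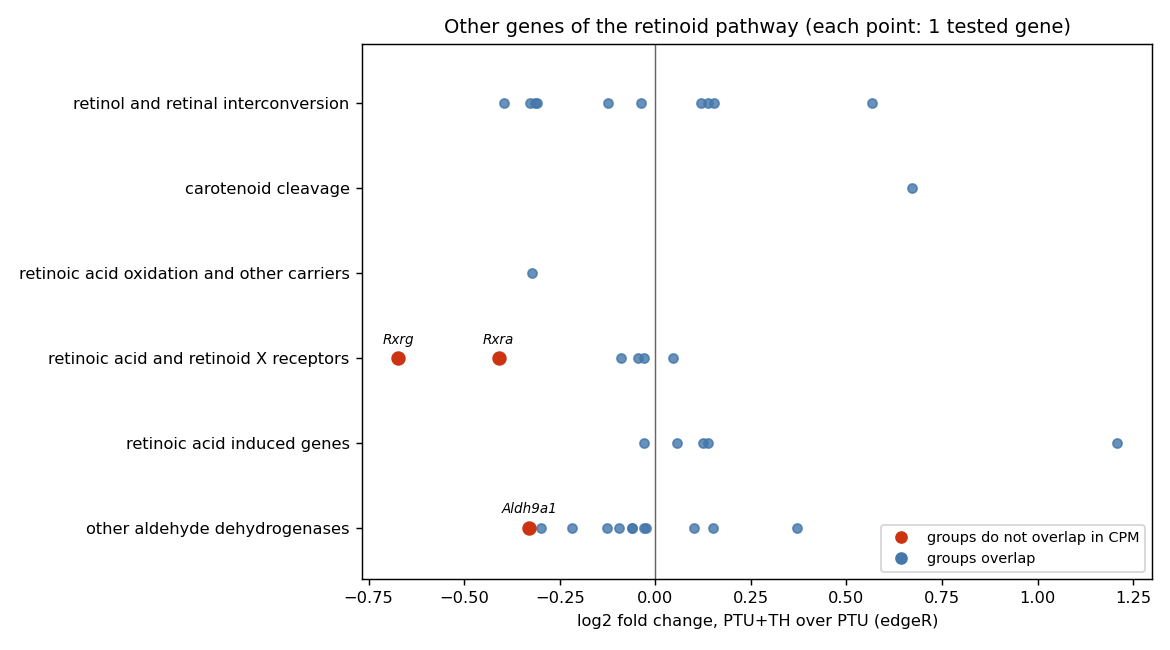
Log2 fold change (PTU+TH over PTU, horizontal axis) of the tested genes of 6 pathway lists, 1 point per gene and list; red points are genes whose 4 PTU and 4 PTU+TH libraries do not overlap in CPM. The 3 red genes, Rxrg, Rxra and Aldh9a1, all lie below 0, and 0 of the genes shown was called at an adjusted p under 0.05 in edgeR.

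By group, all 4 tested genes of retinol uptake, storage and carriage lay below 0. The 6 receptors were split 1 above and 5 below 0 (median -0.07), and the 12 tested other aldehyde dehydrogenases 3 above and 9 below (median -0.06). The single tested genes of carotenoid cleavage and of retinoic acid oxidation and other carriers had 0.67 and -0.32. The 10 tested genes that interconvert retinol and retinal were split 4 above and 6 below 0, with a median of -0.08. Of the 5 tested genes known to be induced by retinoic acid, 4 lay above 0, with a median of 0.13. The largest value was that of Tgm2, a transglutaminase, at 1.21 (edgeR adjusted p = 0.326), named here after its value was seen, and Dhrs3, a retinal reductase induced by retinoic acid, had 0.14 (edgeR adjusted p = 0.898).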

How the data were processed

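Nuclear RNA of sorted nuclei was made into cDNA with SMART-Seq chemistry and sequenced as single-end reads on a NextSeq instrument, per the labels' protocols. The submitters' processing notes name Bowtie2 2.5.3 and the build mm10 (GRCm38). The counting program, the annotation, the use of strand and the treatment of introns are not given in the sources used here. The authors deposited raw read counts per gene symbol, 1 file per library. All 55341 symbols match GENCODE M21, from which positions and lengths were taken. Of 1271 protein-coding genes wholly inside another gene, 99.7% were at 0, so a 0 for such a gene is not absence.

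Group differences came from edgeR 4.0.16 under R 4.3.3 (filterByExpr, TMM scaling, robust quasi-likelihood fit, group as the only term) over the 17355 genes kept, two-sided, Benjamini-Hochberg adjusted, called under 0.05. SE and 95% intervals were derived from the quasi-likelihood F. CPM use TMM-scaled library sizes. Floors of 3 counts and the scatter of counts relative to counting cover counting error only. Pairs of libraries within a group differed by more than sampling noise (chi-square per degree of freedom 8.38 to 72.6 in 12 pairs), so each counted as 1 replicate. The labels name individual mice but no litter, so p-values measure the spread between these mice. Alternatives were RLE, upper quartile and total scaling, DESeq2 1.42.0, limma voom 3.58.1, other filters, Y-linked counts or a surrogate variable (sva 3.50.0) as a term, the libraries with Y-linked counts only, and leaving out each library. Astrocyte and endothelial marker sums as terms were added after the data were seen. The scripts were tested on simulated data. Members and lists were chosen with earlier results of these data known. The text names all members, Hr, Klf9 and Dbp as a check of the labels, any called pathway gene, the 3 pathway genes of smallest p and the 3 genes most correlated with Aldh1a1; other pathway genes were named after their values were seen. The list of retinol uptake, storage and carriers is given by counts only, and its genes are not reported here.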

Additional observations from a re-analysis of the deposited data

Results flagged for a closer look

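In each group, a mouse standing apart from its 3 companions was looked for over 70 sets of values, covering the 9 members, Rxrg, Rxra, Aldh9a1, Hr, Klf9, Dbp and the summed levels of the gene lists. There were 6, where chance gives about 1 in 20, or 3.5. Among the members this was Crabp1 in PTU mouse 9, at 1.02 CPM against 0.60 to 0.66 CPM in the other PTU mice. The sum of the retinoic acid and retinoid X receptors was 151 CPM in PTU+TH mouse 14 against 138 to 140 CPM. In PTU mouse 10 the endothelial sum was 156 CPM against 35.6 to 55.7 CPM, and the pericyte and smooth muscle sum was 106 CPM against 22.0 to 34.3 CPM. The choroid plexus sum was 3.50 CPM in PTU+TH mouse 13 against 2.00 to 2.14 CPM, and the sum of dopamine neuron genes was 45.5 CPM in PTU mouse 12 against 51.9 to 53.0 CPM.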

How the results depend on the processing

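No paired analysis was possible because no mouse number occurs in both groups. The number of members called was 0 in all 20 alternatives run, and Aldh1a1, Cyp26b1, Rdh10, Rbp4 and Crabp1 kept their direction in all those that gave a value. Crabp2 turned to 0.061 with Y-linked counts as a term and in the libraries with such counts, and to 0.0027 with a surrogate variable. Leaving out single libraries gave log2 fold changes from -0.29 to 0.27 for Crabp2, -0.57 to 0.25 for Aldh1a3 and -0.79 to 0.45 for Stra6. Other pathway genes called numbered 1 with DESeq2 (Rxrg) and 1 with a surrogate variable (Fabp5). Over all genes, 368 were called, against 756 with DESeq2, 955 with a surrogate variable, 129 with Y-linked counts as a term and 58 in the 6 libraries with such counts, a smaller set of samples. Why the other fits differ in number was not tested; the cause was not tested for the reversals either. The count ran from 182 without PTU+TH mouse 15 to 499 without PTU mouse 9, and was 233 without PTU mouse 12, 238, 227 and 209 without PTU+TH mice 13, 14 and 16. DESeq2 gave no adjusted p for Aldh1a3, Crabp1 and Crabp2. Depth limits the members near or below 1 CPM, whose intervals are wide.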

Other observations

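Aldh8a1, an aldehyde dehydrogenase that can oxidise retinal, had too few counts for the test and was noticed after its values were seen. It drew 5, 7, 6 and 3 counts from PTU mice 9 to 12, 7 and 6 in PTU+TH mice 13 and 14, and 19 and 23 in PTU+TH mice 15 and 16, the libraries without Y-linked counts. Cyp26a1 drew 1, 2, 2 and 1 counts from mice 9 to 12, then 0, 5, 11 and 6 from mice 13 to 16.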
